A study of Mus musculus with 10 samples.

Results

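Guanylate-binding proteins (Gbps) are large GTPases of the dynamin superfamily, and their genes are among the most strongly interferon-induced genes of the mouse. The members described here are the 10 genes with the symbols Gbp2 to Gbp11, taken by symbol from a table of 54532 genes. Bulk RNA sequencing was performed on obstructed kidneys of wild-type (WT) C57BL/6 male mice that were 8 weeks old, in which the left ureter had been tied off at 2 places (unilateral ureteral obstruction, UUO) and the kidneys taken 14 days later. The PBS group received vehicle, and the DMM group received dimethyl malonate (DMM), an inhibitor of succinate dehydrogenase, at 40 mg/kg by intraperitoneal injection on alternate days. Each group had 5 libraries, stated in the methods to be independent replicates. No unobstructed kidney was used here, so values describe obstructed kidneys only.

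Interferon gamma, made mainly by T cells and natural killer cells, binds its receptor and activates the Janus kinases. Transcription factors that include Irf1 then switch on the Gbp genes in many cell types, including macrophages and epithelial cells. The proteins bind and hydrolyse GTP, assemble on membranes, coat the vacuoles of intracellular pathogens, and take part in the release of bacterial lipopolysaccharide to caspase-11.

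Total counts were between 16457495 and 18078777 reads in the PBS libraries and between 15722527 and 19475833 in the DMM libraries. Some libraries stood apart. DMM replicate 4 differed from the rest across all genes, with a score of 123 on a principal component that held 45.1% of the variance, where the other 9 libraries scored between -20.7 and -2.36, and a TMM scaling factor of 0.8516 against 0.9811 to 1.046 elsewhere. On the second component, with 29% of the variance, PBS replicate 3 scored -18.3 and the other PBS libraries 13.5 to 46.8, while DMM replicates 2, 3 and 5 scored -51.5 to -30.5, and DMM replicates 1 and 4, at 27.4 and 15.3, lay among the PBS libraries. DMM replicate 1 also had Gbp values at the PBS level. In addition, the group means that the authors deposited give a weight of 0 to PBS replicate 3 and DMM replicate 1, so that they rest on 8 libraries. Why these libraries had no weight is not given in the sources used here. Results of the members are therefore given over all 10 libraries and over these 8. Fold changes of some other genes are given over the 8 alone, and over all 10 libraries edgeR called 0 genes. Since 1 of the libraries set aside is the DMM library with Gbp values at the PBS level, a p from the 8 libraries, or from any set without that library, describes the libraries in it and not all 5 DMM mice.

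The summed level of the 10 members, in CPM (counts scaled to library size, with TMM scaling between libraries), was 1036, 906, 1124, 1181 and 1414 in PBS replicates 1 to 5 and 1044, 285, 310, 349 and 222 in DMM replicates 1 to 5. DMM replicate 1 lay within the PBS range, and the other 4 DMM libraries lay far below every PBS library. Of the 10 members, 9 passed the filter on low counts, and each of these 9 had at least 14 reads in every library. Gbp11 did not pass. Over all 10 libraries, edgeR called 0 of the 9 tested members lower in DMM kidneys, beside 0% of 16505 genes tested (a call needs a fold change above 1.5 with an adjusted p below 0.05), with adjusted p between 0.378 and 0.387 for the members. At an unadjusted p under 0.05 with the same fold threshold, all 9 tested members were lower, beside 4.11% of all genes, and DESeq2 over all 10 libraries called 0 members, 33 genes lower and 12 higher. The DESeq2 adjusted p of the 9 tested members over all 10 libraries ran from 0.0506 to 0.139. Over the 8 libraries, edgeR called 9 of 9 tested members lower, beside 3.56% of 16550 genes, with adjusted p between 0.000108 and 0.0117. Leaving out DMM replicate 1 alone, a choice that follows its Gbp values, gave 9 of 9, beside 2.6% of 16760 genes, and is no separate support for a difference. The median log2 fold change of the tested members was -1.36 over all 10 libraries and -1.92 over the 8, where the median of all genes was 0.02 in both. In bulk tissue, fewer cells of a type and less RNA per cell cannot be told apart.

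When all 10 libraries were used, every DMM library was below every PBS library for 0 of 9 tested members, beside 1.16% of all genes, and DMM replicate 1 lay within the PBS range of each. In the 8 libraries, every DMM library lay below every PBS library for 9 of 9 tested members, beside 10.6% of all genes. DMM replicates 2 to 5 were also below PBS replicate 3 for each of these members.

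**Figure D1:**
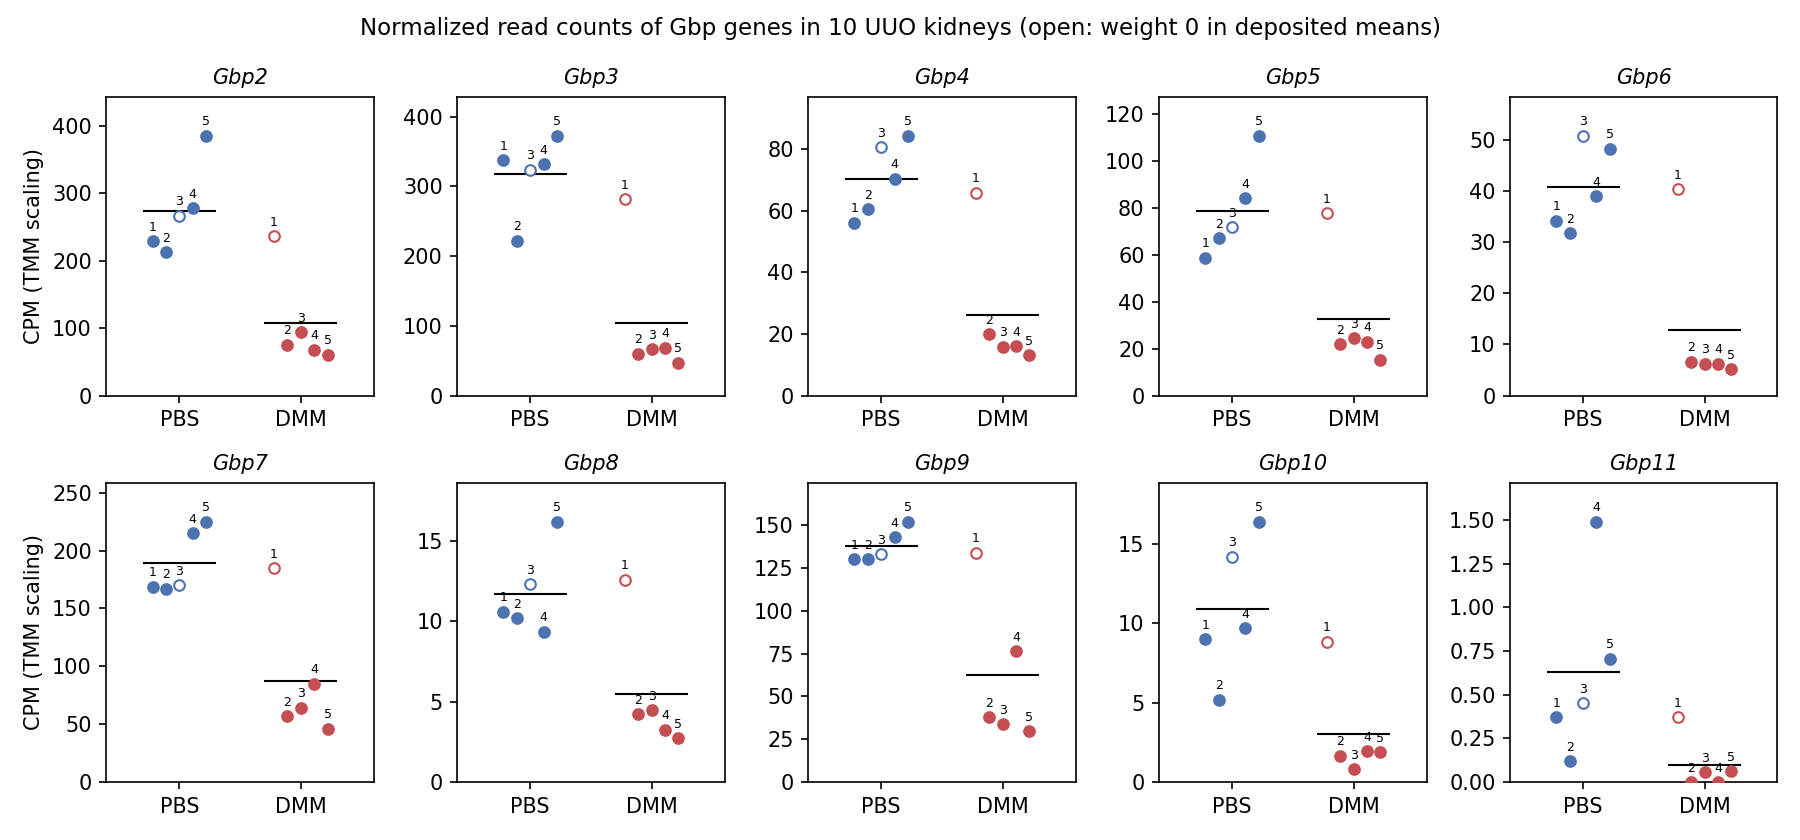
CPM with TMM scaling (vertical axis, linear from 0, a scale for each gene) of the 10 Gbp members in PBS and DMM kidneys (horizontal axis), with a point for each library, its replicate number beside it and the mean of 5 libraries as a line; open points are the libraries with a weight of 0 in the deposited group means. DMM replicate 1 sits within the PBS range in each panel, and DMM replicates 2 to 5 sit below it.

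The members lie in 2 clusters of the mouse genome (positions of build GRCm38). Gbp5, Gbp7, Gbp3 and Gbp2 are on the plus strand of chromosome 3, from chr3:142493978-142522344 for Gbp5 to chr3:142620602-142638008 for Gbp2. Gbp8, Gbp9, Gbp4, Gbp10, Gbp6 and Gbp11 are on the minus strand of chromosome 5, from chr5:105014150-105139540 for Gbp8 to chr5:105323042-105346472 for Gbp11. The spans of Gbp8, Gbp9 and Gbp4 overlap on the same strand, but their exons share only 60 or 61 bases in each pair.

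**Figure D2:**
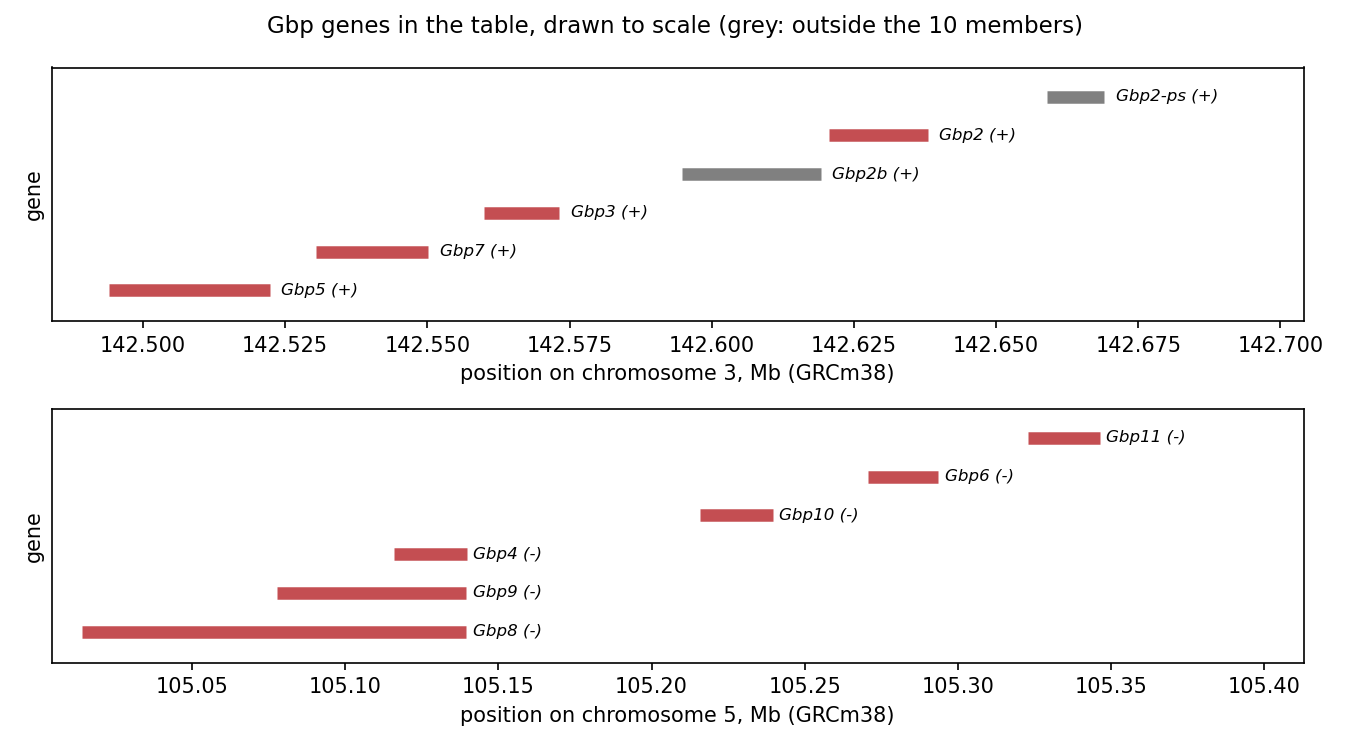
Positions of the Gbp genes of the table on chromosomes 3 and 5 in megabases of GRCm38 (horizontal axis), with a row for each gene and its strand in brackets; grey bars are Gbp2b and the pseudogene Gbp2-ps. Gbp8, Gbp9 and Gbp4 overlap, and the genes of the chromosome 3 cluster do not.

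Per length, the order of the members can be compared through the FPKM values that the authors deposited (reads scaled to gene length and to library size). In PBS kidneys, Gbp2 was the most abundant member at 108 ± 27 FPKM (SD, n = 5), followed by Gbp3 at 96.6 ± 17.4. These 2 did not differ beyond their spread, since their ranges overlapped, though Gbp2 was above Gbp3 in 4 of 5 PBS libraries and in 9 of all 10 libraries. Gbp7 at 33.5 ± 5.08 FPKM and Gbp9 at 26.4 ± 1.95 came next, and the range of each was clear of its neighbours in the order. Gbp5 at 11.8 ± 3.04 FPKM overlapped in range with Gbp4 at 9.32 ± 1.64, and Gbp4 with Gbp6 at 6.8 ± 1.4, yet Gbp5 exceeded Gbp4 and Gbp4 exceeded Gbp6 in all 10 libraries. Gbp8 at 3.39 ± 0.789 and Gbp10 at 2.79 ± 1.14 FPKM also overlapped. Gbp11, at 0.231 ± 0.194 FPKM, was below every other member in each library.

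Gbp2 (ENSMUSG00000028270) encodes a prenylated protein that anchors to membranes and gathers on parasite vacuoles. It had 229, 213, 267, 278 and 386 CPM in PBS replicates 1 to 5 and 237, 75.6, 94, 68.4 and 60.8 CPM in DMM replicates 1 to 5. DMM replicate 1 fell between PBS replicates 1 and 3, and the other DMM libraries were at 22.2% to 34.2% of the PBS mean. The log2 fold change was -1.36 ± 0.36 (SE) over all 10 libraries (edgeR adjusted p = 0.378) and -1.89 ± 0.22 over the 8 (edgeR adjusted p = 0.00203).

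Gbp5 (ENSMUSG00000105504), another prenylated member, has been linked to the assembly of inflammasomes. It had 58.9, 67.1, 72, 84.3 and 111 CPM in PBS replicates 1 to 5 and 77.8, 22, 24.5, 23.1 and 15.3 CPM in DMM replicates 1 to 5. Only DMM replicate 1 overlapped the PBS group. The log2 fold change was -1.27 ± 0.40 over all 10 libraries (edgeR adjusted p = 0.385) and -1.92 ± 0.23 over the 8 (edgeR adjusted p = 0.00224).

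Gbp3 (ENSMUSG00000028268) had the largest difference of the chromosome 3 members in the 8 libraries. Its values were 338, 222, 324, 332 and 373 CPM in PBS replicates 1 to 5 and 282, 60.4, 66.2, 68.5 and 47 CPM in DMM replicates 1 to 5. PBS replicate 2 was the lowest of its group and still more than the 4 low DMM libraries, while DMM replicate 1 was above it. The log2 fold change was -1.60 ± 0.46 over all 10 libraries (edgeR adjusted p = 0.378) and -2.39 ± 0.19 over the 8 (edgeR adjusted p = 0.00023).

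Gbp7 (ENSMUSG00000040253), which has been tied to the assembly of the phagocyte oxidase, had 169, 167, 170, 215 and 225 CPM in PBS replicates 1 to 5 and 185, 56.9, 64.3, 84.8 and 46 CPM in DMM replicates 1 to 5. DMM replicate 1 was within the PBS range, and DMM replicate 4 was the highest of the other 4. The log2 fold change was -1.11 ± 0.34 over all 10 libraries (edgeR adjusted p = 0.378) and -1.62 ± 0.20 over the 8 (edgeR adjusted p = 0.00287).

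In the chromosome 5 cluster, Gbp9 (ENSMUSG00000029298) had 130, 130, 133, 143 and 152 CPM in PBS replicates 1 to 5 and 134, 37.7, 33.6, 76.5 and 29.6 CPM in DMM replicates 1 to 5. DMM replicate 4, at 55.6% of the PBS mean, was well above DMM replicates 2, 3 and 5, which were at 21.5% to 27.4%. On the log2 scale, Gbp9 differed by -1.14 ± 0.38 over all 10 libraries (edgeR adjusted p = 0.385) and -1.65 ± 0.28 over the 8 (edgeR adjusted p = 0.0117). Gbp4 (ENSMUSG00000079363) had 56, 60.4, 80.6, 70.3 and 84.3 CPM in PBS replicates 1 to 5 and 65.8, 19.9, 15.8, 16.1 and 13.2 CPM in DMM replicates 1 to 5. The 4 low DMM libraries of Gbp4 were close to each other, and DMM replicate 1 was again inside the PBS group. For Gbp4 the log2 fold change was -1.43 ± 0.42 over all 10 libraries (edgeR adjusted p = 0.378) and -2.06 ± 0.18 over the 8 (edgeR adjusted p = 0.000317). Gbp8 (ENSMUSG00000034438) had fewer reads, with 10.6, 10.2, 12.3, 9.36 and 16.2 CPM in PBS replicates 1 to 5 and 12.6, 4.22, 4.48, 3.26 and 2.74 CPM in DMM replicates 1 to 5. Its groups overlapped through DMM replicate 1. The difference for Gbp8 was, on the log2 scale, -1.11 ± 0.39 over all 10 libraries (edgeR adjusted p = 0.387) and -1.66 ± 0.25 over the 8 (edgeR adjusted p = 0.00683).

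Gbp6 (ENSMUSG00000104713) and Gbp10 (ENSMUSG00000105096) are a pair of near-identical copies, and reads from either may have been counted for the other. Their coding sequences were 98.4% identical, and 62.7% of the stretches of 100 bases in the transcripts of Gbp6 and 39.1% of those of Gbp10 were unique within the family, against at least 94.9% for every other member. The gene model Gm43302 also covers 29% of the exon bases of Gbp6 and 46.3% of those of Gbp10, and had at most 3 reads in any library. Values of Gbp6 and Gbp10 as separate genes are therefore uncertain. Gbp6 had 34.2, 31.7, 50.8, 39 and 48.2 CPM in PBS replicates 1 to 5 and 40.3, 6.62, 6.23, 6.22 and 5.17 CPM in DMM replicates 1 to 5. The 4 low DMM libraries of Gbp6 spanned a narrow range, and DMM replicate 1 was close to the PBS mean. For Gbp6 it was, on the log2 scale, -1.66 ± 0.56 over all 10 libraries (edgeR adjusted p = 0.385) and -2.66 ± 0.17 over the 8 (edgeR adjusted p = 0.000108). Gbp10 had 9, 5.18, 14.2, 9.68 and 16.4 CPM in PBS replicates 1 to 5 and 8.83, 1.64, 0.793, 1.93 and 1.88 CPM in DMM replicates 1 to 5. PBS replicate 2 was the lowest of its group, and DMM replicate 1 lay above it. On the log2 scale, Gbp10 differed by -1.85 ± 0.58 over all 10 libraries (edgeR adjusted p = 0.385) and -2.68 ± 0.40 over the 8 (edgeR adjusted p = 0.00736). With the reads of Gbp6 and Gbp10 summed, the log2 fold change over the 8 libraries was -2.67 (edgeR adjusted p = 0.00014). Over all 10 libraries this sum was not called (edgeR adjusted p at least 0.378).

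Gbp11 (ENSMUSG00000092021) is annotated as a polymorphic pseudogene and carried few reads. Its counts were 7, 2, 8, 28 and 12 reads in PBS replicates 1 to 5 and 6, 0, 1, 0 and 1 reads in DMM replicates 1 to 5. DMM replicate 1 lay within the PBS range, and the other DMM libraries had at most 1 read. Over the 8 libraries, 2 reads in DMM against 49 in PBS gave a scaled ratio of 4.4% (95% exact binomial interval 0.518% to 16.8%, covering counting error only). Over all 10 libraries, 8 reads against 57 gave 15.2% (6.25% to 32%). PBS replicate 4 held 28 of the PBS reads, and without it, a choice made after seeing the data, the ratio was 7.57% over the rest of the 8 (0.86% to 31%) and 23.6% over the other 9 (9.31% to 52.8%). The fit between libraries over all 10, with no filter on low counts, gave Gbp11 a log2 fold change of -2.61 ± 0.91 (edgeR adjusted p = 0.519).

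**Figure D3:**
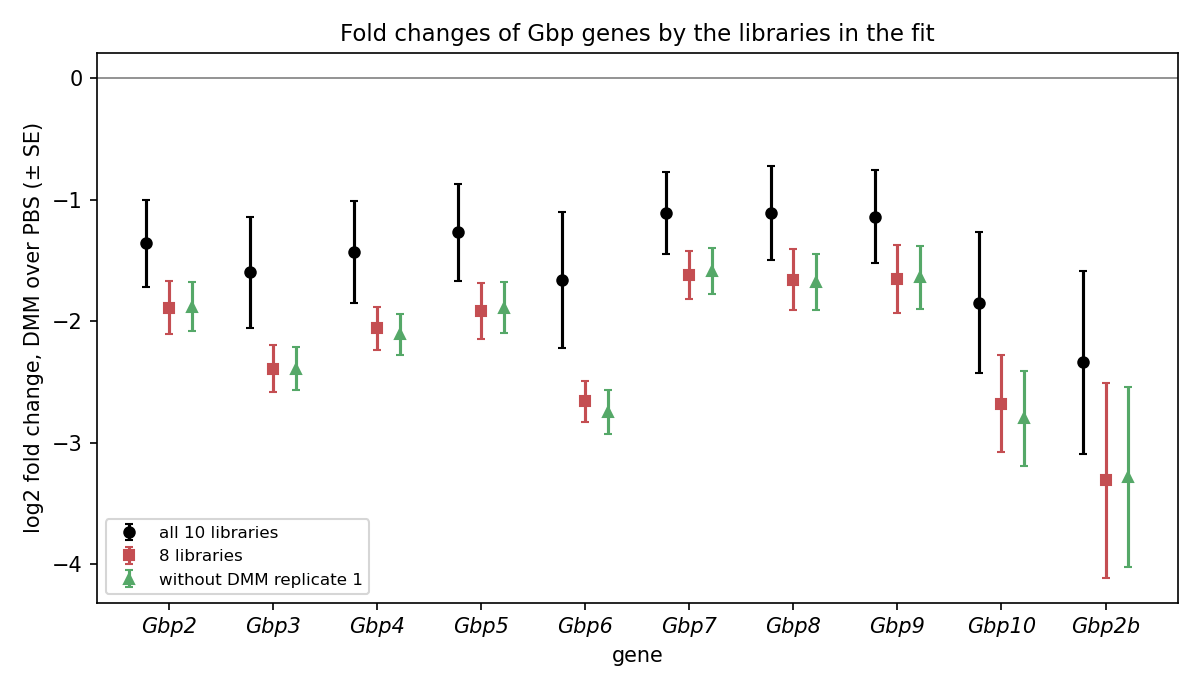
Log2 fold change of DMM over PBS (vertical axis) for the 9 tested members and Gbp2b (horizontal axis), with SE as error bars, over all 10 libraries, over the 8 libraries and without DMM replicate 1. All values are below 0, from -1.11 to -2.34 over all 10 libraries and from -1.62 to -3.31 over the 8.

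Within each group, the same libraries tended to hold the extremes of the Gbps. In the PBS group, replicate 5 had the highest CPM for 8 of the 9 tested members, and PBS replicate 3 for Gbp6. PBS replicate 2 had the lowest CPM for 6 of the 9 members, PBS replicate 1 for Gbp4 and Gbp5, and PBS replicate 4 for Gbp8. In the DMM group, replicate 1 was highest for 9 of the 9 members, at between 81.1% (Gbp10) and 107% (Gbp8) of the PBS mean. DMM replicate 5 was lowest for 8 of the 9, and DMM replicate 3 for Gbp10. Without DMM replicate 1, the log2 fold change of the members ran from -1.59 for Gbp7 to -2.80 for Gbp10. The order of the members by their fold change was much the same in that fit and in the 8 libraries, with Gbp10, Gbp6 and Gbp3 lowest and Gbp7, Gbp8 and Gbp9 nearest to 0 in both.

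The members also shifted against each other. Gbp3 took 32.7%, 24.5%, 28.8%, 28.1% and 26.4% of the members' reads in PBS replicates 1 to 5 and 27%, 21.2%, 21.4%, 19.6% and 21.2% in DMM replicates 1 to 5. The share of Gbp3 in DMM replicates 2 to 5 was below that in every PBS library. Gbp7 took 16.3%, 18.4%, 15.1%, 18.2% and 15.9% of these reads in PBS replicates 1 to 5 and 17.7%, 20%, 20.7%, 24.3% and 20.7% in DMM replicates 1 to 5. Here DMM replicates 2 to 5 were above every PBS library. Gbp6 took 3.3%, 3.5%, 4.51%, 3.31% and 3.41% of these reads in PBS replicates 1 to 5 and 3.86%, 2.32%, 2.01%, 1.78% and 2.33% in DMM replicates 1 to 5. As for Gbp3, its share in DMM replicates 2 to 5 was below that in every PBS library. Gbp9 took 21.9% in DMM replicate 4 and between 10.8% and 14.3% in the other 9 libraries. These shares were chosen after their values were seen, and their differences were not tested.

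Of the other Gbp genes in the table, Gbp2b, formerly named Gbp1, had 49, 61, 49, 12 and 90 reads in PBS replicates 1 to 5 and 28, 4, 9, 0 and 7 reads in DMM replicates 1 to 5. DMM replicate 1 was inside the PBS range, and DMM replicates 2 to 5 were below all PBS libraries. The difference for Gbp2b was, on the log2 scale, -2.34 ± 0.75 over all 10 libraries (edgeR adjusted p = 0.385) and -3.31 ± 0.80 over the 8 (edgeR adjusted p = 0.0417). This Gbp2b call over the 8 libraries was lost in 6 of 8 fits with 1 further library left out (edgeR adjusted p up to 0.128). The pseudogene Gbp2-ps had 0 reads in every library. The atlastins, GTPases of the endoplasmic reticulum that are the nearest relatives of the Gbps, did not follow the members: over the 8 libraries, log2 fold changes were -0.00 for Atl1, 0.26 for Atl2 and 0.38 for Atl3 (edgeR adjusted p = 0.994, 0.246 and 0.487). Atl3 had 427 CPM in DMM replicate 4 and between 173 and 194 CPM in the other 9 libraries, and its log2 fold change without DMM replicate 4 was -0.04 over the rest of the 8 and -0.00 over the other 9.

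In sequence, the members of the chromosome 3 cluster were less alike than those of chromosome 5. Translated coding sequences were 50.4% to 73.1% identical over the 6 pairs of chromosome 3 members, the closest being Gbp3 and Gbp7, and 81% to 97.7% over the 15 pairs of chromosome 5 members, the closest being Gbp6 and Gbp10. The RefSeq promoter table (GRCm38.p6, 250 bases before to 50 after a start) matched 4 of the 10 members by symbol, Gbp2, Gbp3, Gbp5 and Gbp7. Gbp4, Gbp6, Gbp8, Gbp9, Gbp10 and Gbp11 were not matched. The core of the interferon-stimulated response element (ISRE, GAAANNGAA) and the gamma-activated site (GAS, TTCNNNGAA) were searched on both strands. The ISRE core was found in the promoters of all 4 matched members, against 9.76% of 27025 genes in the table, and for Gbp3 in 1 of its 2 promoters. GAS was found in those of Gbp5 and Gbp7, against 9.55% of genes. A match is a run of letters and not a shown binding site. The promoters that held a match are printed, with matches to the ISRE core (read on the minus strand) or GAS in capitals, all on the plus strand of chromosome 3. Members without a matched promoter were low in the same libraries, and any link of the matches to the Gbp levels was not tested. In Gbp3, 2 ISRE core matches overlap. The windows are chr3:142620413-142620712 for Gbp2, chr3:142559794-142560093 for Gbp3, chr3:142496684-142496983 for Gbp5 and chr3:142530086-142530385 for Gbp7.
Gbp2: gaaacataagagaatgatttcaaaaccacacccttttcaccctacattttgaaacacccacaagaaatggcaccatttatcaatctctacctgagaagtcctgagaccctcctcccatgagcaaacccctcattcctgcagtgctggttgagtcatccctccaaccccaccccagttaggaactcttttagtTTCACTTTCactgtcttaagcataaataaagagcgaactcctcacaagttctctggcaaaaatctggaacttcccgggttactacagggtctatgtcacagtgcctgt
Gbp3: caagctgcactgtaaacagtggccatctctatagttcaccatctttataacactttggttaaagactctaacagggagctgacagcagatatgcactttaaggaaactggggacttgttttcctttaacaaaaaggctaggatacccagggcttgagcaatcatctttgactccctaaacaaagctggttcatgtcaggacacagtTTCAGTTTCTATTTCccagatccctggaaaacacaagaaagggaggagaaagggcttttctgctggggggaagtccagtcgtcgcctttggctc
Gbp5: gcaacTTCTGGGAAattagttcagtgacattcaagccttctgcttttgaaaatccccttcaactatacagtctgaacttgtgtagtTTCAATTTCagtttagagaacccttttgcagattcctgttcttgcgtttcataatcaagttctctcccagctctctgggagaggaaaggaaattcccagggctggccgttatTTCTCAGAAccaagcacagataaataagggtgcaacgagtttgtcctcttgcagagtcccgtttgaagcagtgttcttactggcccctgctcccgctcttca
Gbp7: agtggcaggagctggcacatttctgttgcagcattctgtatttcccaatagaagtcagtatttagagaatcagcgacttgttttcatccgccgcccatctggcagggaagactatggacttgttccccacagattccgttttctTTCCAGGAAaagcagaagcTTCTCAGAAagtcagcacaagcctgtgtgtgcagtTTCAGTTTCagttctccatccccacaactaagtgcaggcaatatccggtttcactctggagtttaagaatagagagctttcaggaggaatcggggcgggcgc

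The genes of the interferon pathway were read from the same fits. Of 7 ligands, Ifng, which encodes interferon gamma, had 4, 6, 7, 6 and 7 reads in PBS replicates 1 to 5 and 5, 4, 3, 0 and 0 reads in DMM replicates 1 to 5, and the other 6 had 0 reads in every library. Ifng did not pass the filter on low counts. Without that filter, all 10 libraries gave Ifng a difference of -1.18 ± 0.80 on the log2 scale (edgeR adjusted p = 0.588), and over the 8 it was -1.62 ± 1.04 in DESeq2 (DESeq2 adjusted p = 0.399). Of 6 interferon receptor genes, 0 passed over the 8 libraries, beside 3.56% of all genes lower and 2.73% higher, and Ifngr1, the most abundant of them per length, had a log2 fold change of -0.31 ± 0.17 (edgeR adjusted p = 0.329). Ifnar2, at -0.47 (edgeR adjusted p = 0.0489), fell short of the fold threshold only.

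Beside 3.56% of all genes lower and 2.73% higher over the 8 libraries, edgeR called 7 of 12 kinases and factors lower and 0 higher. Over all 10, edgeR called 0 of them and DESeq2 called 1, Batf2, at -1.47 (DESeq2 adjusted p = 0.0444). Over the 8 libraries, log2 fold changes were -2.39 for Stat2, -1.39 for Irf1, -3.61 for Irf7, -1.33 for Irf9 and -2.10 for Batf2, with edgeR adjusted p = 0.000107, 0.0115, 0.00119, 0.00136 and 0.00116. In the same order, they were -1.48, -1.06, -2.28, -0.92 and -1.47 over all 10 libraries (edgeR adjusted p from 0.378 to 0.385). Of 5 inhibitors of interferon signals, 2 were lower over the 8 libraries: Socs1, at -2.44 (edgeR adjusted p = 0.0463), and Usp18, at -3.41 (edgeR adjusted p = 0.000108). Over all 10 libraries edgeR called 0 of the 5, with Socs1 at -1.51 and Usp18 at -1.86 (edgeR adjusted p = 0.44 and 0.394). The Socs1 call was lost without DMM replicate 1 alone (edgeR adjusted p = 0.0519), with library size as the only scaling of the 8 (edgeR adjusted p = 0.0514) and in 7 of 8 fits with 1 further library left out (edgeR adjusted p up to 0.133).

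Among other genes that interferon gamma induces, edgeR called 11 of 15 tested lower over the 8 libraries and 0 of 15 over all 10, where DESeq2 called 3 of 15, with a median log2 fold change of -1.81 over the 8. Of all genes, edgeR called 3.56% lower over the 8. With 1 further library left out of the 8, edgeR called 7 to 15 of this list lower. The 3 of smallest p were Nlrc5, at -1.87, Cxcl10, at -2.86, and Tap1, at -2.13 (edgeR adjusted p = 0.000188, 0.000238 and 0.000889). Immunity-related GTPases, which act on the same vacuoles as the Gbps, were lower in 7 of 7 tested over the 8 libraries and 0 of 7 over all 10 in edgeR, with a median of -2.64 over the 8. Over all 10 libraries DESeq2 called 1 of 7, Gm12250, at -1.79 (DESeq2 adjusted p = 0.0452). Their summed level was 1526, 1331, 1718, 1597 and 1929 CPM in PBS replicates 1 to 5 and 1420, 325, 350, 292 and 245 CPM in DMM replicates 1 to 5. The groups overlapped through DMM replicate 1 alone, as for the Gbps. Those of smallest p were Irgm1, at -2.24, Gm12250, at -2.72, and Irgm2, at -2.15 (edgeR adjusted p = 0.000123, 0.000188 and 0.000189).

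Of 11 tested genes of caspase-11 and the inflammasomes, 4 were lower over the 8 libraries in edgeR, among them Aim2, at -1.20, Pycard, at -0.71, and Casp4, which encodes caspase-11, at -0.84 (edgeR adjusted p = 0.0122, 0.0135 and 0.0367). The share of all genes called lower over the 8 was 3.56%. Without DMM replicate 1 alone 2 of these 11 passed, and Casp4 did not (edgeR adjusted p = 0.0711). On leaving 1 further library out of the 8, 0 to 6 of the list were lower, and the call was lost in 7 of 8 fits for Casp4, 3 of 8 for Pycard and 1 of 8 for Aim2 (edgeR adjusted p up to 0.115, 0.0603 and 0.0513). Over all 10 libraries edgeR called 0 of the 11 and DESeq2 called 1, Pycard, at -0.60 (DESeq2 adjusted p = 0.0371). Of 12 genes of the ubiquitin-like conjugation system that guides Gbps to vacuoles, 0 passed over the 8 libraries, and 0 to 1 were higher with 1 further library left out. Those of smallest p were Atg5, at 0.19, Gabarapl1, at 0.54, and Atg16l1, at -0.22 (edgeR adjusted p = 0.339, 0.354 and 0.426). Of 6 tested genes of the interleukin 12 axis, which promotes interferon gamma production, 1 was lower over the 8 libraries, Il12rb1, at -1.55 (edgeR adjusted p = 0.0168), a call lost in 4 of 8 fits with 1 further library left out (edgeR adjusted p up to 0.0644), where 0 to 3 of the list were lower. Il18r1, at -0.78, and Il12b, at -2.23, did not pass (edgeR adjusted p = 0.134 and 0.183).

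The 8 genes outside the family whose pattern over the 10 libraries was most like that of the members were Irgm2, Nlrc5, Herc6, Slfn2, Gm4951, Phf11b, Ube2l6 and Parp9. Likeness was the root mean square difference in centred log2 CPM from the mean of the 9 tested members, which was 0.138 for Irgm2 and 0.200 for Parp9, against a median of 1.072 over 16505 genes. For the members themselves it ran from 0.125 for Gbp4 to 0.504 for Gbp10. Over the 8 libraries, log2 fold changes of these genes ran from -1.83 for Parp9 to -2.39 for Gm4951. Over all 10 they ran from -1.22 for Herc6 to -1.59 for Gm4951.

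Most markers of immune cells did not pass over the 8 libraries, where edgeR called 3.56% of all genes lower. Over all 10, 0 markers of any list passed in edgeR or DESeq2. The marker counts depended on single libraries: with 1 further library left out of the 8, 0 to 3 T cell, 0 to 2 natural killer cell, 1 to 4 macrophage, 2 to 3 monocyte and 0 to 3 dendritic cell markers were lower. Of 6 T cell markers, 1 was lower over the 8 libraries, and their summed level was 42.4, 45.4, 42.2, 36 and 63.8 CPM in PBS replicates 1 to 5 and 39.7, 32.1, 13.4, 17.8 and 18.6 CPM in DMM replicates 1 to 5. Of 6 natural killer cell markers, 1 was lower, with a summed level of 22.6, 17.7, 20.9, 18.5 and 27.2 CPM in PBS replicates 1 to 5 and 17.5, 14.4, 6.74, 10.2 and 9.12 CPM in DMM replicates 1 to 5. In both lists DMM replicate 1 was the highest DMM library, within the PBS range for T cells and just below it for natural killer cells. Of 6 macrophage markers, 2 were lower over the 8 libraries and 1 without DMM replicate 1 alone, with a summed level of 1264, 1180, 1021, 1197 and 1367 CPM in PBS replicates 1 to 5 and 1084, 800, 666, 662 and 688 CPM in DMM replicates 1 to 5. Of 4 monocyte markers, 2 were lower, with a summed level of 298, 245, 251, 367 and 348 CPM in PBS replicates 1 to 5 and 301, 159, 130, 199 and 139 CPM in DMM replicates 1 to 5. Of 4 dendritic cell markers, 1 was lower, with a summed level of 105, 75, 81.1, 83 and 106 CPM in PBS replicates 1 to 5 and 85.4, 49.2, 28.1, 56.5 and 35.3 CPM in DMM replicates 1 to 5. As for the Gbps, DMM replicate 1 was within the PBS range of these 3 lists and the other DMM libraries were below it. The most abundant marker per length was Trac for T cells (5.8 FPKM over 10 libraries), Nkg7 for natural killer cells (4.65 FPKM), C1qb for macrophages (225 FPKM), Plac8 for monocytes (84 FPKM) and Itgax for dendritic cells (10 FPKM), and no marker of these lists was at 0 in every library.

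Of 6 proximal tubule markers, 1 was higher over the 8 libraries, and their summed level was 2013, 2041, 4788, 895 and 1577 CPM in PBS replicates 1 to 5 and 1453, 3945, 4738, 3809 and 5711 CPM in DMM replicates 1 to 5, with Slc27a2 the most abundant per length (230 FPKM). Both libraries without weight in the deposited means were unlike their group here, with PBS replicate 3 at the level of the high DMM libraries and DMM replicate 1 within the range of the other PBS libraries. For the Gbps, PBS replicate 3 was at the level of its own group. Of 4 loop and distal tubule markers 3 were higher over the 8 libraries, where 2.73% of all genes were called higher. The tubule calls were lost with other sets of libraries. Without DMM replicate 1 alone 0 of 6 proximal tubule and 0 of 4 loop and distal tubule markers passed as higher (edgeR adjusted p = 0.118 for Lrp2, 0.145 for Slc12a1, 0.228 for Slc12a3 and 0.39 for Calb1). With 1 further library left out of the 8, 0 to 5 proximal tubule, 0 to 4 loop and distal tubule and 0 to 3 collecting duct markers were higher and 0 to 1 fibroblast markers lower. Over the 8 libraries, 0 of 4 B cell, 0 of 4 neutrophil, 0 of 4 collecting duct, 0 of 4 podocyte, 0 of 5 endothelial and 0 of 5 fibroblast markers passed. The part of these cell types in the Gbp values was not tested.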

How the data were processed

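Bulk RNA of 10 UUO kidneys was sequenced. The authors aligned reads to mm10, with HISAT2 2.0.5 named in the submitters' processing notes, and deposited counts of reads per gene, without normalization. The counting tool and the use of strand are not given in the sources used here. The authors also deposited FPKM values, used here only to compare levels between genes, and group means, a signal of scaled counts, used only to find which libraries they rest on. Columns of the authors' fold changes and p-values were not used. Counts were filtered by filterByExpr, scaled by TMM and tested by edgeR 4.0.16 (quasi-likelihood F test, R 4.3.3), with Benjamini-Hochberg adjustment over all genes tested. A call needed a fold change above 1.5 with an adjusted p below 0.05. The SE of an edgeR log2 fold change is its absolute value divided by the square root of its F statistic. DESeq2 1.42.0, other scalings, filters, libraries left out, replicate blocks and summed paralogs were alternatives. The edgeR step was tested on simulated counts with known changes. No simulated library was made to stand apart from its group, so this does not test calls that depend on single libraries. Coding sequences came from GENCODE transcripts of GRCm38. Of the 54409 genes of the table that were found there, 98.3% had the same position. Named genes were the Gbp genes, the atlastins, pathway genes by role or, in other lists, the 3 of smallest p over the 8 libraries, and the 8 most similar in pattern. Cell markers named singly were chosen after their values were seen. The members and lists were chosen with earlier results of these data known. The proteins were compared as translated coding sequences in place of RefSeq proteins. Values of 1 gene of a pathway list are not reported here, though the list's counts include it.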

Additional observations from a re-analysis of the deposited data

Results flagged for a closer look

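DMM replicate 1 lay far above the other 4 DMM libraries for 9 of the 11 Gbp genes examined in each group (the 10 members and Gbp2b). Its values were 237 CPM for Gbp2, 282 CPM for Gbp3, 65.8 CPM for Gbp4, 77.8 CPM for Gbp5, 40.3 CPM for Gbp6, 185 CPM for Gbp7, 12.6 CPM for Gbp8, 8.83 CPM for Gbp10 and 0.37 CPM for Gbp11. In each, the gap to the nearest DMM library was over 0.71 of the range of the group, which chance gives in about 1 in 20 groups. The genes share these libraries, so that the 9 are not independent. No PBS library stood apart in this way for any of the 11 genes.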

How the results depend on the processing

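The log2 fold change of the 9 tested members was below 0 in all 252 values over the alternatives, while the calls depended on the libraries. Over all 10 libraries edgeR called 0 members and 0 genes. Over the 8 libraries it called 9 members, 590 genes lower and 452 higher. DESeq2 called 0 members, 33 genes lower and 12 higher over all 10 libraries, and 10 members including Gbp11, 910 genes lower and 749 higher over the 8. With library size alone the 8 libraries gave 9 members, 700 genes lower and 276 higher, where the median of all genes moved by -0.11 (log2), so that the split of higher and lower calls depends on the scaling. At an unadjusted p over all 10 libraries, 9 members, 678 genes lower and 315 higher passed. RLE scaling, other filters, no fold threshold and an adjusted p under 0.01 gave 0 calls over all 10 libraries.

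Leaving out 1 library from the 10 gave 0 to 436 genes lower, 0 to 50 higher and 0 to 9 members. Without DMM replicate 1, 9 members, 436 genes lower and 50 higher were called, and without any other single library of the 10, 0. From the 8, leaving out 1 kept 9 members called each time, while calls of other genes were lost. These were lost in 6 of 8 fits for Gbp2b, 7 for Socs1, 7 for Casp4, 4 for Il12rb1, 3 for Pycard and 1 for Aim2, and, of the markers, in 7 for C1qb, 6 for Slc12a3, 5 each for Cd4, Slc12a1 and Calb1, 2 each for Klrk1 and Itgax and 1 for Lrp2. With library size alone over the 8, the calls of Socs1, C1qb and Slc12a3 were lost. Genes lower and higher numbered 367 and 225 without PBS replicate 1, 349 and 198 without PBS replicate 2, 317 and 160 without PBS replicate 4 and 276 and 131 without PBS replicate 5. They numbered 572 and 377 without DMM replicate 2, 308 and 186 without DMM replicate 3, 1281 and 1129 without DMM replicate 4, and 302 and 168 without DMM replicate 5.

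Same-numbered libraries correlated at -0.06, 0.0792, 0.341, 0.124 and -0.223, and 1 of 5 PBS libraries correlated best with its own number. These values do not show a pairing by replicate number and cannot exclude one. With the replicate block, 0 genes and 0 members were called over all 10 libraries and 0 over the 8, where edgeR adjusted p of the members ran from 0.0514 to 0.135. Their log2 fold changes over the 8 were -2.71 to -1.68 with the block and -2.68 to -1.62 without it. In the 8, PBS replicate 1 and DMM replicate 3 had no partner of the same number, so the block left fewer libraries to compare. The loss of calls with the block over the 8 cannot be told apart from this loss of libraries.

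With paralogs summed over the 8 libraries, log2 fold changes were -2.67 for Gbp6 with Gbp10 and -1.76 for Gbp4 with Gbp8 and Gbp9. Over all 10 libraries the sums were between -1.70 and -1.23 and were not called (edgeR adjusted p from 0.378 to 0.386). Leaving out libraries for the Gbp11 ratio was chosen after seeing the data. Direction turned for Atl1, at 0.11 with the replicate block over the 8 libraries and 0.09, 0.02 and 0.07 over the 8 without PBS replicate 1, DMM replicate 3 and DMM replicate 5, and for Atl3, at -0.00 to 0.44 with 1 of the 10 libraries left out, lowest without DMM replicate 4, and -0.04 over the 8 without DMM replicate 4. The cause was not tested.

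Depth limits Gbp11, Gbp2b and Ifng, which had few reads. Reads of Gbp6 and Gbp10 cannot be told apart over much of their length. The 8 libraries are part of the 10, so that neither set is an independent check of the other.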
